A study of Mus musculus with 45 samples.

Results

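The mitochondrial ribosomal proteins were followed as 76 genes in adipocytes of 45 mice. They were chosen by symbol: 156 probe sets carry a single gene symbol made of Mrpl or Mrps, a number and at most 1 further letter, and of several probe sets for a gene the one of highest mean level across the 45 arrays was kept. The table holds 45037 probe sets, of which 34945 have a single symbol and together name 18193 genes. All 76 genes were tested, since no filter on level was used. The symbols name 47 large subunit genes (Mrpl) and 29 small subunit genes (Mrps). By the place of the proteins in the ribosome, 49 belong to the large subunit, Mrps30 and Mrps18a among them, 26 to the small subunit, and Mrps36 was not assigned. Counterparts in bacterial ribosomes are known for 44 of the proteins and 30 are additions found in mitochondria.

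The mitochondrial ribosome translates the few messages of mitochondrial DNA, which encode core subunits of the respiratory chain and of ATP synthase. All of its proteins are encoded in the nucleus, made in the cytosol and imported, and the small subunit reads the message while the large subunit joins the amino acids and feeds the new chain into the inner membrane. In white adipocytes, mitochondria serve fatty acid synthesis, lipolysis and adiponectin output as well as ATP production.

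D mice carried IR+/- IRS1+/- ApoE-/- and E mice carried ApoE-/- alone, so that every group, controls included, lacked ApoE. All mice were C57BL/6 females and started their diet at 8 weeks of age. D mice on Western diet for 8 weeks (DW8, n = 5) or 16 weeks (DW16, n = 9) were set against D mice on chow for 8 weeks (DC8, n = 7) or 16 weeks (DC16, n = 5), and E mice on Western diet for 16 weeks (EW16, n = 8) against E mice on chow (EC16, n = 5). The E mice on Western diet for 8 weeks (EW8, n = 6) have no chow group of that time. Mice were thus 16 or 24 weeks old when parametrial and periovarian adipocytes were taken, and the heterozygous deletions of IR and IRS1 are not described as limited to adipocytes. Each mouse gave 1 array. All values below are the deposited log2 RMA values and all differences are log2 differences, Western minus chow unless stated. A probe set's level cannot be ranked against that of another, so comparisons between groups are made within a probe set.

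The arrays did not share a common range. On 10 arrays, those of DW16 mice 1 to 7 and EW16 mice 1 to 3, the 95th percentile of all values lay at 10.14 to 10.85, whereas it lay at 10.95 to 11.14 on the other 35. These are called narrow-range arrays here. No label names a batch for them, and the main counts at 16 weeks are therefore given as deposited, after quantile normalization over the 45 arrays, and without these 10. Values with no scaling named are as deposited. Adipocyte markers were abundant in all groups, with Adipoq at 13.27 or above and Fabp4 at 13.63 or above on every array. Their mean over 8 markers was 12.71 ± 0.181 (SD, n = 5) in DC16 and 12.16 ± 0.472 (SD, n = 9) in DW16, 12.62 ± 0.117 (SD, n = 5) in EC16 and 12.24 ± 0.544 (SD, n = 8) in EW16, and none of the 8 passed the test in a diet comparison as deposited. In bulk RNA such as this, fewer cells of a type and less RNA per cell cannot be told apart.

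Promoters were read from RefSeq for GRCm38.p6, as windows of 300 bases that lie mostly upstream of each gene's start, and 67 of the 76 genes have such a window. The cores of binding motifs of factors known for nuclear genes of mitochondrial proteins were searched on both strands. CCGGAAG, the core for ETS family factors such as NRF2, was present in 25 of 67 windows (37.3%) and in 9.93% of the windows of 27025 genes. AAGATGG, the core for YY1, was present in 13 (19.4%, against 7.28%), and GCATGCG, the core for NRF1, in 8 (11.9%, against 4.01%). At least 1 of these letters was held by 37 windows (55.2%) and by 19.3% of all. The SP1 core GGGCGG was held by 50.7% against 38.2% and CCAAT by 38.8% against 41.1%, and the median GC content was 58% for the 67 windows and 52.8% for all. These are matches of letters in one window, not measured sites. The windows of 6 genes named below are printed 5′ to 3′, with the ETS, NRF1 and YY1 cores in capitals. Mrps35 is among the genes without a window, and Mrps11 is printed as the neighbour of Mrpl46, though it passed no test below. Mrpl17 (chr7:105811038-105811337, minus strand) passed the test as lower in DW16 and EW16, and Mrpl43 (chr19:45006393-45006692, minus strand) in EW16 only. Mrps30 (chr13:118387203-118387502, minus strand) was lower and Mrpl23 (chr7:142532782-142533081, plus strand) higher in DW16. Mrpl46 (chr7:78783040-78783339, minus strand) and Mrps11 (chr7:78782881-78783180, plus strand) face away from each other and their windows overlap. In the Mrpl17 window the NRF1 core is read on both strands in overlapping letters.
Mrpl17: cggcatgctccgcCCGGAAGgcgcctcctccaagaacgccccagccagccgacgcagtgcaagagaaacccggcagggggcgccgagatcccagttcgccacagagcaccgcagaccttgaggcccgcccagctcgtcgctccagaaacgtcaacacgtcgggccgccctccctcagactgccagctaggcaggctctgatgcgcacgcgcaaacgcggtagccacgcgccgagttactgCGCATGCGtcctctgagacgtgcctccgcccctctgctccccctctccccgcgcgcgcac
Mrpl43: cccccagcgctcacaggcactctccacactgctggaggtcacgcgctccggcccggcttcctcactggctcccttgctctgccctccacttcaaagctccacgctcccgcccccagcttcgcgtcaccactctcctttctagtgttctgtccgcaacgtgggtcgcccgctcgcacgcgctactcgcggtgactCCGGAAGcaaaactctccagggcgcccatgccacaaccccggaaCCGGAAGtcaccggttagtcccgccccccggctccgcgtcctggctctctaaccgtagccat
Mrps30: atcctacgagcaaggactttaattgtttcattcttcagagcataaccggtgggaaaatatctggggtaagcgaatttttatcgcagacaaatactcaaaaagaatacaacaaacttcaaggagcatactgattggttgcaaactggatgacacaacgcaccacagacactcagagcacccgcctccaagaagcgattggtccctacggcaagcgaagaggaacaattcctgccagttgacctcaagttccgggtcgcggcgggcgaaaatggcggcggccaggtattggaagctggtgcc
Mrpl23: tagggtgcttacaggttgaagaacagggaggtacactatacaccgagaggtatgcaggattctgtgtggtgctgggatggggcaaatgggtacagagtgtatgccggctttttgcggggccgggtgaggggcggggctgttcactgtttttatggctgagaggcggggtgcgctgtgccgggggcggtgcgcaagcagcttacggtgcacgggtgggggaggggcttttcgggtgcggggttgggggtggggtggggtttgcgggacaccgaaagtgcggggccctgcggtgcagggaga
Mrpl46: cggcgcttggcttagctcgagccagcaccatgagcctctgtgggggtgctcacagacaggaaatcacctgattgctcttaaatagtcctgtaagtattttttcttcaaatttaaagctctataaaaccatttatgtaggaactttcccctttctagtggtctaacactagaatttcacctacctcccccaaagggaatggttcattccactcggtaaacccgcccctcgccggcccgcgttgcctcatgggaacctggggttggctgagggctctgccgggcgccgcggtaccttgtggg
Mrps11: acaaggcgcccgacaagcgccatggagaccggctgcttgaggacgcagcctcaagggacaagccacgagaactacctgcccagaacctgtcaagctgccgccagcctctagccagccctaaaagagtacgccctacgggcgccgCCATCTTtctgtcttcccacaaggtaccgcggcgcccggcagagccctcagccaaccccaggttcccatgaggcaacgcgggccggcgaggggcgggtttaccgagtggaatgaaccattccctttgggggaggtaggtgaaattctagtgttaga

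The median over the 76 genes gave the first view of each mouse. In DC8 it ranged from 9.59 to 9.92 around 9.78 ± 0.150 (SD, n = 7), and in DW8 from 9.48 to 9.66 around 9.58 ± 0.0911 (SD, n = 5). In DC16 it was 9.83 ± 0.115 (SD, n = 5) with a range of 9.65 to 9.96, and in DW16 it was 9.50 ± 0.261 (SD, n = 9) with a range of 9.17 to 9.97. Chow and Western mice of the D genotype thus overlapped at both times. In EC16 it was 9.74 ± 0.125 (SD, n = 5), from 9.54 to 9.87, and in EW16 9.20 ± 0.230 (SD, n = 8), from 8.90 to 9.65. The lowest group mean was that of EW16, and only the highest of its mice reached into the chow range. EW8 lay at 9.69 ± 0.289 (SD, n = 6) with the widest spread, from 9.33 to 10.16. After quantile normalization the means were 9.72 in DC16, 9.77 in DW16, 9.62 in EC16 and 9.33 in EW16, so that the lower mean of DW16 was gone and that of EW16 was smaller.

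**Figure D1:**
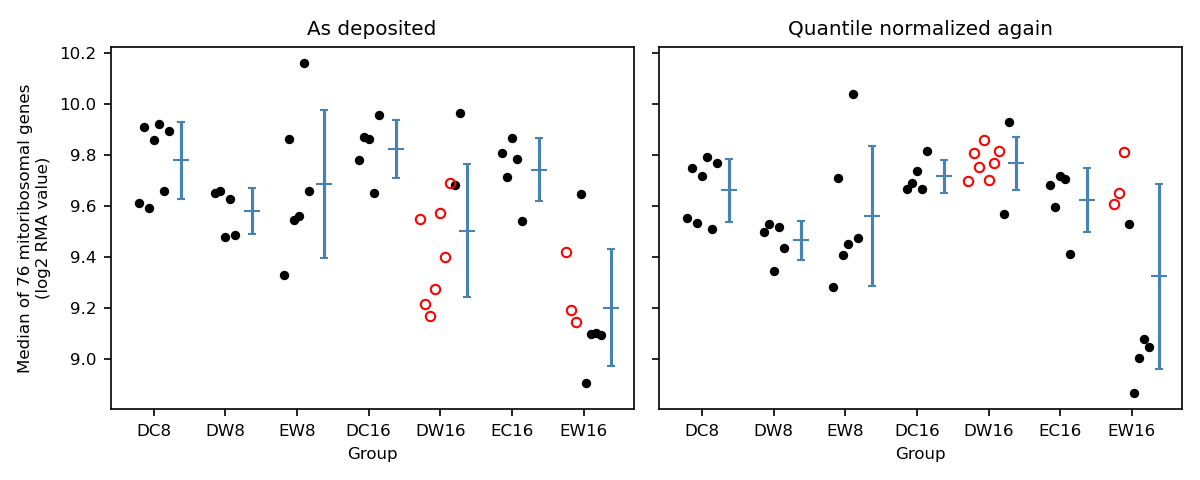
Median log2 RMA value of the 76 mitochondrial ribosomal protein genes in each mouse by group, as deposited (left) and after quantile normalization over all arrays (right). Points are mice, open red circles narrow-range arrays, and blue bars the group mean with its SD; DW16 moved from a mean of 9.50 to 9.77 between the panels, while EW16 stayed the lowest group in both.

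At 8 weeks on Western diet, D mice had slightly lower values for most mitochondrial ribosomal proteins. The group mean was lower in DW8 than in DC8 for 70 of 76 genes (92.1%, against 55.0% of all probe sets), with a median difference of -0.15 against -0.02 over all probe sets. None of the 76 passed limma's test at a Benjamini-Hochberg adjusted p under 0.01, where 1.08% of all probe sets did. At an adjusted p under 0.05, 6 were lower (1.64% of all probe sets were lower at that threshold). Means were lower for 27 of 29 small subunit symbols and 43 of 47 large subunit symbols, with medians of -0.11 and -0.16, and the difference between these classes was not tested.

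Mrpl46, a mitochondrial addition to the large subunit, stood nearest to the threshold. Its values were 9.37, 9.48, 9.30, 9.31 and 9.21 in the DW8 mice, and 9.49, 9.76 and 9.97 as lowest, median and highest in DC8. No DW8 mouse reached the lowest DC8 mouse, and the difference was -0.44 (SE 0.0882, limma adjusted p = 0.0128). After quantile normalization it passed (-0.44, limma adjusted p = 0.00656), and it was then the single gene called, where 1.15% of all probe sets were. Its neighbour Mrps11, a small subunit protein with a bacterial counterpart and the overlapping promoter window printed above, differed by -0.43 (SE 0.132, limma adjusted p = 0.0803), with DW8 mice at 7.03, 7.05, 6.79, 6.95 and 6.66 and DC8 mice at 6.74, 7.32 and 7.66 as lowest, median and highest. The groups overlapped for Mrps11. In all, 4 genes had no overlap between DW8 and DC8, all lower: Mrpl46, Mrpl52, Mrpl17 and Mrps16 (1.16% of all probe sets were lower without overlap). After quantile normalization there were 10 (1.47% of all probe sets). Mrpl52, another large subunit addition, differed by -0.33 (SE 0.0728, limma adjusted p = 0.0206), and Mrps16, a small subunit protein with a bacterial counterpart, by -0.27 (SE 0.069, limma adjusted p = 0.0364). Mrpl12, which forms the stalk where translation factors dock, differed by -0.42 (SE 0.103, limma adjusted p = 0.0348), Mrpl34 by -0.38 (SE 0.0982, limma adjusted p = 0.0413) and Mrpl43 by -0.44 (SE 0.115, limma adjusted p = 0.0414). The largest difference in the other direction was +0.12 for Mrpl54 at an unadjusted limma p of 0.373.

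At 16 weeks, means of D mice on Western diet were lower for most genes and higher for some. Relative to DC16, means in DW16 were lower for 57 genes and higher for 19, with a median of -0.27 against 0.04 for all probe sets. The share of all probe sets with lower means is not given here. Over all probe sets this difference correlated with mean level (Pearson r of -0.47, and -0.047 after quantile normalization). The median of the 76 genes averaged 9.83 in DC16, on arrays whose own medians lay at 5.517 to 5.585. All probe sets are thus not matched to the 76 genes in level. Of the 76, 3 fell and 1 rose by limma at an adjusted p under 0.01, where 3.43% of all probe sets were called (2.63% lower and 0.797% higher). At an adjusted p under 0.05, 20 were lower and 6 higher (13.7% and 7.65% of all probe sets). The counts of genes called higher lay near the share of all probe sets at both thresholds, and so did the 3 called lower at 0.01. After quantile normalization the balance turned: 45 genes had a higher mean, the median was +0.085, and 6 were called higher and 2 lower (1.54% and 1.67% of all probe sets, 3.21% together), of which Mrpl23, Mrpl17 and Mrps35 had been called before in the same direction. Without the narrow-range arrays, which leaves 2 DW16 mice, none passed, and the median was +0.041. Each of the 4 calls was also lost in 12 of 14 fits that left out 1 mouse, those without DC16 mice 1 to 5 or DW16 mice 1 to 7. By contrast, 23 genes passed without DW16 mouse 9 and 17 without DW16 mouse 8. The shares of all probe sets called in these fits are not given here.

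Mrpl17, a large subunit protein with a bacterial counterpart, showed the widest difference among the 76 chosen probe sets. It stood at 11.12, 11.17, 11.04, 11.26 and 11.25 in DC16, and at 9.01, 9.28 and 11.10 as lowest, median and highest in DW16. The fall was 2.95-fold (-1.56, SE 0.319, limma adjusted p = 0.00797). The 7 narrow-range DW16 arrays averaged 9.23 and the other 2 averaged 10.95, with 10.79 and 11.10, so all narrow-range arrays lay below chow, and of the other 2 mice, 1 lay within the chow range and 1 just below it. Mrps35, a mitochondrial addition to the small subunit, followed the same pattern. Its DC16 values were 9.78, 10.03, 9.82, 9.55 and 9.90 and those of DW16 ran from 7.61 through a median of 8.28 to 9.61, a difference of -1.36 (SE 0.277, limma adjusted p = 0.00794). Again the mice with the other arrays were the highest, at 9.47 and 9.61. For both genes the call held after quantile normalization, with differences of -1.18 (limma adjusted p = 0.00839) and -1.03 (limma adjusted p = 0.00846).

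Mrps30 sits in the large subunit despite its symbol. It was at 9.95, 10.18, 9.95, 10.13 and 9.96 in DC16 and from 8.73 through 9.09 to 9.82 in DW16. The groups did not overlap (-0.88, SE 0.165, limma adjusted p = 0.0063), and the difference was -0.51 after quantile normalization (limma adjusted p = 0.0143). Mrps22, a small subunit addition, was the other gene lower without overlap (1.96% of all probe sets were), at -0.56 (SE 0.135, limma adjusted p = 0.0139). After quantile normalization Mrps22 overlapped (-0.18, limma adjusted p = 0.350), Mrps30 was the single gene lower without overlap, and 6 genes were higher without overlap (1.43% and 1.53% of all probe sets). Mrpl23, whose protein lies by the mouth of the exit tunnel of the large subunit, rose. It was at 8.78, 8.75, 8.79, 8.85 and 8.83 in DC16 and from 9.01 through 9.33 to 9.57 in DW16. Every DW16 mouse lay above every DC16 mouse, those with the other arrays included at 9.01 and 9.33 (+0.51, SE 0.0997, limma adjusted p = 0.0071; 1.67% of all probe sets were higher without overlap). After quantile normalization its difference was +0.87 (limma adjusted p = 0.00269). With a trended robust eBayes on the deposited values no gene was called higher in DW16, so this call was lost.

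The genes that passed as higher only after quantile normalization had higher means in the deposited values too. Mrpl52 differed by +0.56 (SE 0.161, limma adjusted p = 0.0265) as deposited and +0.99 after it, Mrps18c by +0.52 (SE 0.156, limma adjusted p = 0.0314) and +0.95, Mrps33 by +0.55 and +0.93, and Mrps21 by +0.35 and +0.71. The fifth, Mrpl51, differed by +0.18 as deposited (limma adjusted p = 0.441) and +0.60 after it. Mrps18c belongs to the small subunit and is related to Mrps18a, a large subunit protein that differed by -0.64 as deposited (SE 0.205, limma adjusted p = 0.0387). Probe sets of the same gene did not always move together. The 3 other probe sets of Mrpl52 differed by -0.15, -0.44 and +0.10. The other Mrpl17 probe sets differed by +0.16 and +0.20, at mean levels of 5.41 and 5.21 against 10.43 for the chosen one. Mrpl19 differed by -1.06 in DW16 and -0.75 in EW16 (limma adjusted p = 0.0118 and 0.0358). Another Mrpl19 probe set differed by -1.92 and -1.87 (limma adjusted p = 0.0119 and 0.00407), wider than the chosen probe set of Mrpl17. The remaining Mrpl19 probe sets differed by +0.06 and -0.36 in DW16. Of 42 genes with several probe sets, all of them had the same sign in 15 in this comparison, and none had calls in opposite directions. That count includes probe sets of low level.

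**Figure D2:**
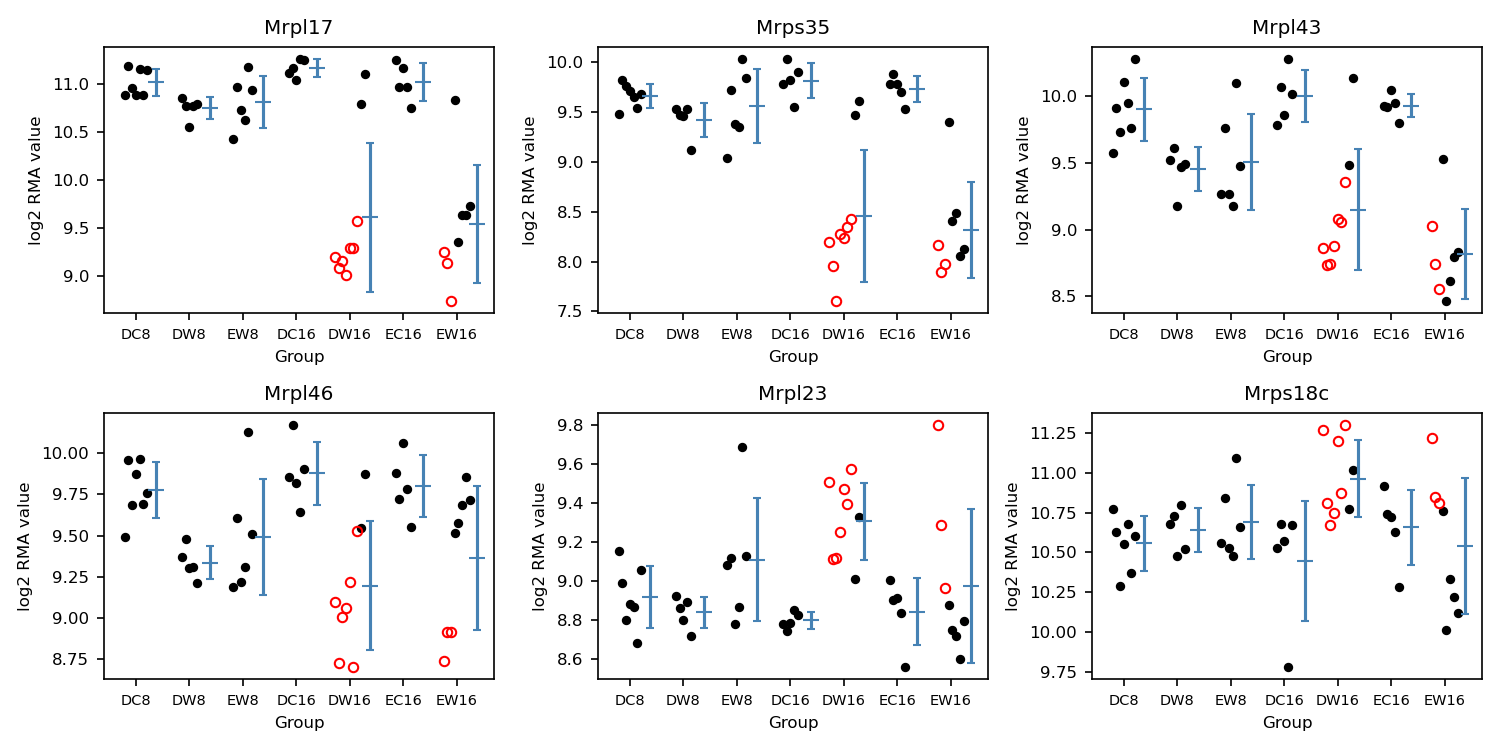
Log2 RMA values of 6 genes in each of the 45 mice by group. Points are mice, open red circles narrow-range arrays, and blue bars group means with SD; DW16 mice with the other arrays stood near chow for Mrpl17 and Mrps35, and EW16 mice 5 to 8 stood low on the other arrays too.

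In E mice at 16 weeks, more of the genes passed the test. Means were lower in EW16 than in EC16 for 64 of 76, with a median of -0.42 against +0.06 for all probe sets. The share of all probe sets with lower means is not given here. Over all probe sets this difference, too, correlated with mean level (Pearson r of -0.40, and -0.064 after quantile normalization). By limma 11 fell and 0 rose at an adjusted p under 0.01, where 2.66% of all probe sets were called (2.39% lower), and 30 were lower at an adjusted p under 0.05 (7.16% of all probe sets). Without the narrow-range arrays, which leaves 5 EW16 mice, 18 fell, all of the 11 among them, and the median was -0.41. After quantile normalization 5 fell and 1 rose (1.68% and 0.953% of all probe sets, 2.64% together), with a median of -0.19 and lower means for 49 genes, and 4 of the 11 were among them. Leaving out EC16 mouse 1, 2 or 3 left 0 calls, and leaving out EW16 mouse 4 gave 28. The shares of all probe sets called in these fits, and without the narrow-range arrays, are not given here.

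In the large subunit, Mrpl43 had the smallest adjusted p. It was at 9.93, 9.92, 10.05, 9.95 and 9.80 in EC16, and at 8.47, 8.77 and 9.53 as lowest, median and highest in EW16. The groups did not overlap, and the fall was 2.16-fold (-1.11, SE 0.149, limma adjusted p = 0.00236). Mrpl38, like Mrpl43 a mitochondrial addition, was at 9.75, 9.83, 9.86, 9.82 and 9.93 in EC16 and ran from 8.62 through 8.82 to 9.61 in EW16 (-0.95, SE 0.14, limma adjusted p = 0.0028). Mrpl17 was at 11.25, 10.97, 11.17, 10.97 and 10.75 in EC16 and ran from 8.73 through 9.49 to 10.83 in EW16 (-1.49, SE 0.263, limma adjusted p = 0.00513). Only the highest EW16 mouse, mouse 4, reached the chow mice for Mrpl17. Mrpl20, a protein with a bacterial counterpart, fell 2.35-fold (-1.24, SE 0.248, limma adjusted p = 0.00897). Mrpl28 fell by 0.72 (SE 0.102, limma adjusted p = 0.00263) without overlap of the groups. The other Mrpl28 probe sets differed by -0.12 and -0.13 (limma adjusted p = 0.683 and 0.572), so the fall of Mrpl28 rests on the probe set chosen. The mean levels of these probe sets were 9.71 and 8.57, and that of the chosen one was 9.72. Other calls in EW16 also rest on the chosen probe set, but their further probe sets had much lower levels, which limits what they can show. Further probe sets differed by +0.31 and +0.19 for Mrpl17 (mean levels 5.41 and 5.21, against 10.43 for the chosen one) and by +0.32 for Mrps26 (4.93 against 10.04). For Mrpl38 they differed by -0.37 and -0.14 (6.58 and 4.49 against 9.54) and for Mrps10 by -0.165 (5.19 against 8.98), and none of these was called.

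In the small subunit, 6 genes fell. Mrps35 was at 9.78, 9.88, 9.78, 9.70 and 9.53 in EC16 and ran from 7.89 through 8.15 to 9.40 in EW16, which did not overlap (-1.42, SE 0.207, limma adjusted p = 0.00279). Mrps16 was at 9.86, 9.90, 9.96, 9.72 and 9.62 in EC16 and ran from 8.31 through 8.61 to 9.36 in EW16 (-1.09, SE 0.172, limma adjusted p = 0.00338). Its groups did not overlap either, and the lowest were EW16 mice 5 to 8, at 8.31, 8.41, 8.44 and 8.41. Mrps7, which binds the ribosomal RNA of the subunit head, differed by -0.99 (SE 0.17, limma adjusted p = 0.00463), Mrps10 by -0.76 (SE 0.136, limma adjusted p = 0.00552) and Mrps26, a mitochondrial addition, by -1.08 (SE 0.208, limma adjusted p = 0.00762). Mrps12, the counterpart of a bacterial protein of the decoding site, fell by 0.53 (SE 0.102, limma adjusted p = 0.00759). In all, 10 genes were lower without overlap (3.39% of all probe sets were): Mrpl24, Mrpl28, Mrpl36, Mrpl38, Mrpl43, Mrps12, Mrps16, Mrps26, Mrps30 and Mrps35. After quantile normalization 5 were lower without overlap (2.49% of all probe sets), Mrpl24, Mrpl38, Mrpl43, Mrps16 and Mrps35, and Mrps2 was higher (1.76%). By the test after quantile normalization Mrpl17, Mrps35, Mrpl38 and Mrpl43 remained lower, Mrpl18 joined them (-0.60, limma adjusted p = 0.00997), and Mrps2, a small subunit protein with a bacterial counterpart, was the gene called higher.

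**Figure D3:**
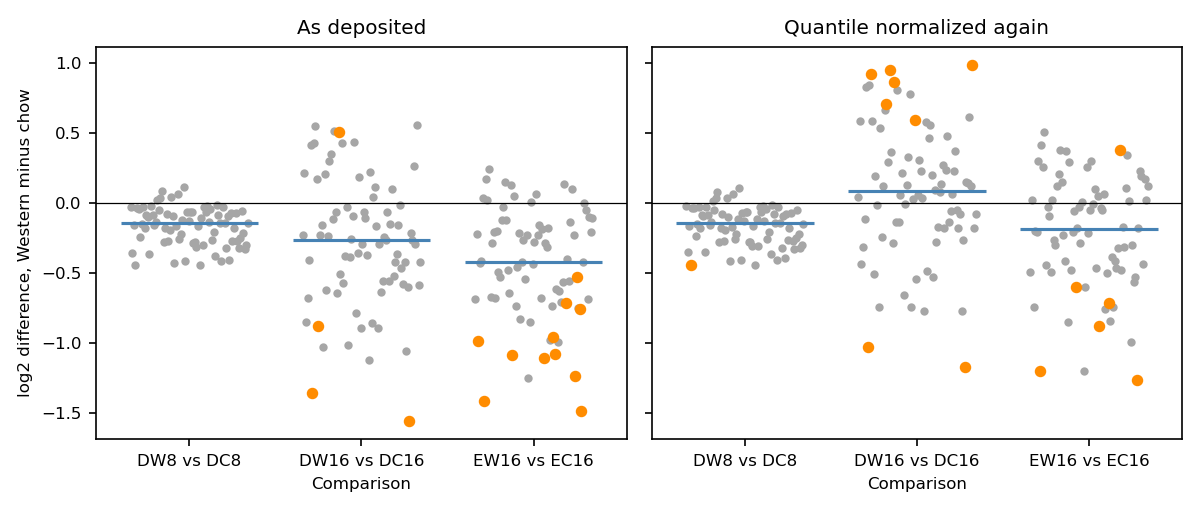
Log2 differences, Western minus chow, of the 76 genes in DW8 against DC8, DW16 against DC16 and EW16 against EC16, as deposited (left) and after quantile normalization (right). Points are genes, orange those with a limma adjusted p under 0.01, and blue lines the medians, which were -0.15, -0.27 and -0.42 as deposited and -0.15, 0.085 and -0.19 after normalization.

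The genes differed in how far their group means spread. As deposited, the SD of the 7 group means was largest for Mrpl17 (0.69), Mrps35 (0.62), Mrpl54 (0.57) and Mrpl4 (0.46). It was smallest for Mrpl22 (0.0508), Mrps9 (0.0724), Mrpl3 (0.0761) and Mrps31 (0.0928). Mrpl22 was not the smallest after quantile normalization. Mrpl4, a large subunit protein with a bacterial counterpart, had means of 10.07 to 10.16 in the 5 groups other than DW16 and EW16, where it was 9.23 and 9.12. The narrow-range DW16 arrays ran from 8.63 to 9.28, whereas DW16 mice 8 and 9 stood at 10.2 and 10.45. In EW16, mouse 4 stood at 10.12 and mice 5 to 8 at 9.30 to 9.44. Mrpl54, a large subunit addition, was at 7.06, 7.12, 7.10, 6.81 and 7.14 in EC16 and at 5.96, 6.20, 5.82, 7.10, 5.03, 5.38, 5.33 and 5.51 in EW16. All EW16 mice but mouse 4 lay below EC16, and the difference just missed the threshold (-1.25, SE 0.273, limma adjusted p = 0.0127). Mrpl22, whose bacterial counterpart lines the exit tunnel, had group means between 9.69 and 9.84 as deposited, and its diet differences after quantile normalization were +0.37 in D mice and +0.34 in E mice at 16 weeks.

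The classes of genes were set side by side at 16 weeks, with no test between them. In EW16 the median was -0.40 for small and -0.43 for large subunit symbols, with 6 of 29 and 5 of 47 called, and -0.47 for the 44 genes with bacterial counterparts and -0.36 for the 30 mitochondrial additions. In DW16 these medians were -0.30, -0.25, -0.30 and -0.23. After quantile normalization they were -0.17, -0.20, -0.22 and -0.13 in EW16 and turned to +0.034, +0.13, +0.074 and +0.090 in DW16. Within the stalk, Mrpl12, Mrpl11 and Mrpl10 differed by -0.36, -0.59 and -0.90 in DW16 and by -0.85, -0.21 and -0.44 in EW16, with limma adjusted p between 0.0234 and 0.398. The Mrps18 genes went separate ways in DW16, with -0.64 for Mrps18a, -0.42 for Mrps18b and +0.52 for Mrps18c, and in EW16 they differed by -0.64, -0.40 and -0.12. None of these passed the test as deposited.

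Single mice were set against the range of their chow group. In EW16, mouse 4 had 15 of 76 genes below the lowest EC16 mouse (19.7%, against 21.4% of all probe sets), whereas the other 7 mice had 36 to 60. Mice 5 to 8, whose arrays have the usual range, had 60, 49, 51 and 51 below as deposited and 56, 49, 46 and 48 after quantile normalization. The narrow-range mice 1 to 3 had 36, 48 and 49 below as deposited, against 28.5%, 36.4% and 37.8% of all probe sets. After quantile normalization they had 23, 21 and 15 below and 31, 38 and 42 above. The shares of all probe sets were then 31.6%, 31.8% and 33.0% below and 33.6%, 34.2% and 35.3% above. The lower values thus held under both scalings in mice 5 to 8 and not in mice 1 to 3. For comparison, 23.1% to 25.2% of all probe sets lay below the EC16 range in mice 5 to 8 as deposited, and 26.35% to 27.62% after quantile normalization. In DW16, on arrays of usual range, mouse 8 had 26 genes below and 10 above the DC16 range, against 15.1% and 15.4% of all probe sets, and mouse 9 had 6 below and 35 above, against 18.5% and 25.1%. The 7 narrow-range mice had 23 to 55 below and 5 to 25 above as deposited, with 23.2% to 32.5% of all probe sets below and 27.0% to 31.0% above. After quantile normalization these mice had 16 to 27 below and 28 to 39 above, against 24.9% to 28.6% and 27.5% to 30.5% of all probe sets. The pair of DW16 mice with usual arrays therefore differed from each other in direction. In DW8 the count below ran from 9 to 38 and that above from 0 to 4, against 12.6% to 17.4% and 11.7% to 19.2% of all probe sets, and the lowest count, 9 in mouse 2 (11.8%), lay below that mouse's share of 14.7%.

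**Figure D4:**
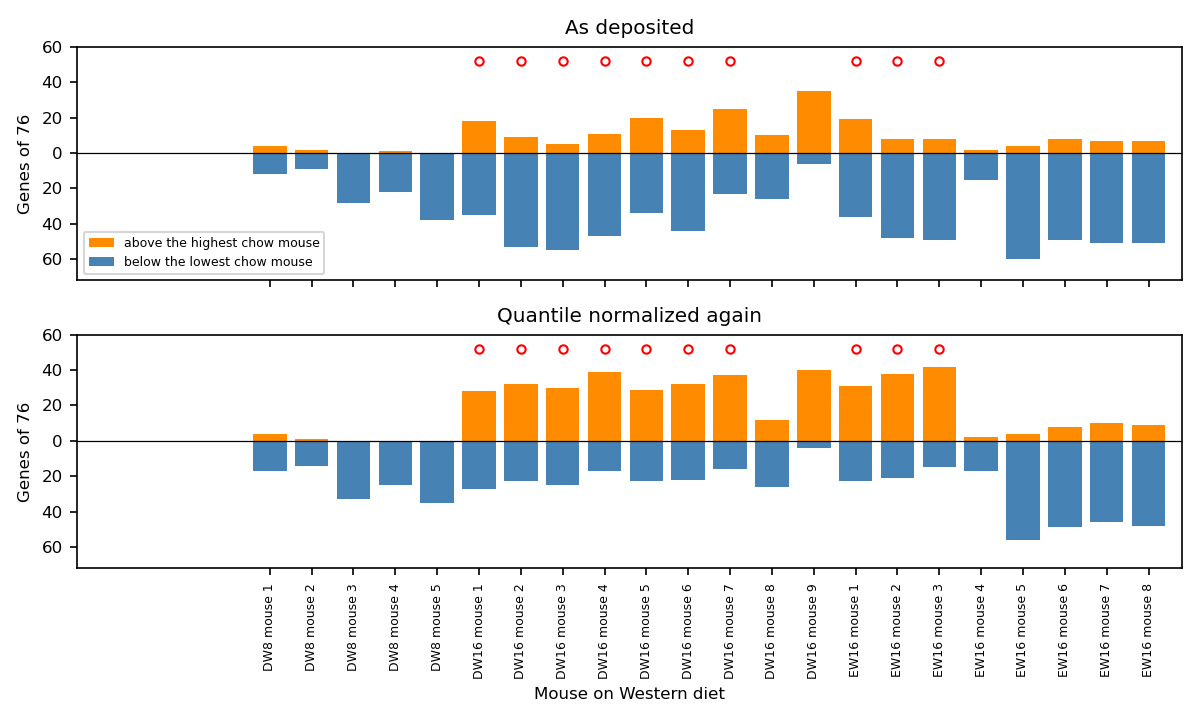
Number of the 76 genes lying below the lowest (blue, downward) or above the highest (orange, upward) mouse of the matching chow group, for each mouse on Western diet, as deposited (top) and after quantile normalization (bottom). Red circles mark narrow-range arrays. EW16 mice 5 to 8 kept 46 or more genes below the chow range in both panels. EW16 mouse 4 had 15 as deposited (19.7%, against 21.4% of all probe sets).

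Within EW16 some genes separated the mice in opposite ways. Mrpl52 was at 10.84, 10.48 and 10.44 in mice 1 to 3 and at 8.69, 8.88, 8.94 and 9.07 in mice 5 to 8, around EC16 values of 9.57 to 9.88. Mrpl46 was at 8.74, 8.92 and 8.92 in mice 1 to 3 and at 9.58, 9.69, 9.86 and 9.71 in mice 5 to 8, with EC16 at 9.55 to 10.06. Group means of these genes therefore average mice on both sides of chow for Mrpl52 (-0.10, limma adjusted p = 0.871) and mice below and within the chow range for Mrpl46 (-0.43, limma adjusted p = 0.166). After quantile normalization Mrpl46 was at 8.97, 9.35 and 9.57 in mice 1 to 3, of which the last lay within the EC16 range of 9.42 to 9.91, whereas Mrpl52 still lay above EC16 in mice 1 to 3 and below it in mice 5 to 8. Mrpl17 and Mrps35 were low in both sets of mice.

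Both genotypes were compared at 16 weeks. Of the 4 genes called in D mice and the 11 called in E mice, 2 were shared, Mrpl17 and Mrps35, which is 50% of the former and 18.2% of the latter. Over the 76 genes, 53 had lower means in both genotypes and 8 higher means in both, and after quantile normalization these counts were 28 and 24. The shares of all probe sets with the same direction in both are not given here, so these counts alone do not set the genes apart. The differences of the 2 genotypes, which share no mice but share the array range of 10 arrays, correlated across genes with a Pearson r of 0.77 and a Spearman rho of 0.76 (n = 76 genes, which are not independent), and over all probe sets with 0.73 and 0.66. Without the narrow-range arrays the values were 0.10 and 0.06. Whether the diet effect differed between genotypes was tested directly. None of the 76 passed limma's interaction test at an adjusted p under 0.01 or 0.05, where 0 of all probe sets did at 0.01. The median interaction was +0.17, which was +0.10 without DW16 mouse 9, and +0.46 without the narrow-range arrays, where again none passed. The smallest p belonged to Mrpl14 (+0.66, SE 0.205, 95% interval 0.24 to 1.09, limma adjusted p = 0.786).

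**Figure D5:**
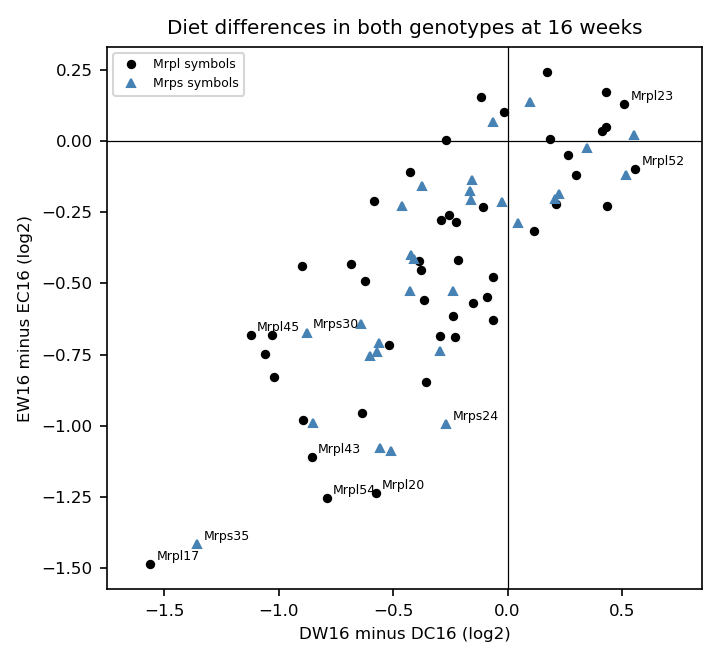
Log2 difference DW16 minus DC16 (x axis) against EW16 minus EC16 (y axis) for the 76 genes as deposited, with Mrpl symbols as circles and Mrps symbols as triangles. Mrpl17 and Mrps35 lie lowest on both axes, and 53 genes lie below 0 on both, against 28 after quantile normalization, which is not drawn.

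The change of the diet effect with time was tested in D mice. No gene passed limma's interaction test at an adjusted p under 0.01, where 0.00444% of all probe sets did. At an adjusted p under 0.05, 5 were higher and 3 lower (1.57% and 4.89% of all probe sets). Mrpl52 (+0.89, SE 0.187, limma adjusted p = 0.0186) and Mrpl23 (+0.59, SE 0.129, limma adjusted p = 0.019) led those with a higher difference at 16 weeks. Mrps30 (-0.79, SE 0.209, limma adjusted p = 0.0327), Mrpl17 (-1.29, SE 0.363, limma adjusted p = 0.0377) and Mrps35 (-1.12, SE 0.317, limma adjusted p = 0.0396) led those with a lower one. After quantile normalization Mrpl52 (+1.31, limma adjusted p = 0.00968) and Mrpl23 (+0.95, limma adjusted p = 0.00725) passed, where 0.133% of all probe sets did, and the median turned from -0.10 to +0.30. Without DC8 mouse 3 the median as deposited was -0.043.

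Between genotypes on the same diet, no gene passed limma's test at an adjusted p under 0.01 or 0.05. On chow at 16 weeks, DC16 was above EC16 for 60 of 76 genes (0.00222% of all probe sets were called). The median was +0.10, which was +0.042 without EC16 mouse 5. Mrps30 was the single gene without overlap (0.742% of all probe sets were higher in that way), at +0.21 (SE 0.0738, 95% interval 0.05 to 0.37, limma adjusted p = 0.774). On Western diet at 8 weeks, DW8 was below EW8 for 69 genes with a median of -0.09. That median was -0.15 without EW8 mouse 1 and -0.0074 without EW8 mouse 5. On Western diet at 16 weeks, DW16 was above EW16 for 64 genes with a median of +0.26. That median was +0.38 after quantile normalization and +0.57 without the narrow-range arrays (7 of 9 in DW16 and 3 of 8 in EW16). Mrpl34 showed the smallest p there (+0.57, SE 0.128, 95% interval 0.31 to 0.84, limma adjusted p = 0.241). In the chow mice of D genotype, DC16 was above DC8 for 56 genes with a median of +0.09, which was +0.058 without DC8 mouse 3. In these comparisons 0 of all probe sets were called on Western diet or between times. How many of all probe sets had means in the same direction is not given here.

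The other parts of mitochondrial gene expression were read from lists that name their genes by function. Of 4 ribosomal proteins outside the naming rule, Gadd45gip1, a large subunit protein, fell in EW16 (-1.34, SE 0.276, limma adjusted p = 0.00973), and Dap3, Ptcd3 and Chchd1 of the small subunit did not pass in any diet comparison. Of 23 assembly factors, Noa1, a GTPase of small subunit assembly, fell in DW16 (-1.14, SE 0.185, limma adjusted p = 0.00394). Malsu1 (-0.92, SE 0.146, limma adjusted p = 0.00345), Mtg2 (-0.84, SE 0.129, limma adjusted p = 0.00302) and Ngrn (-0.92, SE 0.104, limma adjusted p = 0.00142), which act in large subunit assembly, fell in EW16. Of 15 translation factors, Lrpprc, which stabilizes mitochondrial messages, fell in DW16 (-1.12, SE 0.241, limma adjusted p = 0.0094) and the elongation factor gene Tufm fell in EW16 (-0.78, SE 0.149, limma adjusted p = 0.00757). Of 21 mitochondrial aminoacyl-tRNA synthetases only Ears2 passed, lower in EW16 (-0.98, SE 0.195, limma adjusted p = 0.00858). After quantile normalization Gadd45gip1, Mtg2, Tufm and Ears2 were no longer called in EW16 (limma adjusted p = 0.0205, 0.0254, 0.144 and 0.0107). Malsu1 and Ngrn in EW16 and Noa1 and Lrpprc in DW16 still were. In DW16, 1 translation factor was then called higher (1.54% of all probe sets were). The median of assembly factors moved from -0.32 to +0.0098 in DW16 and from -0.26 to -0.061 in EW16. That of translation factors moved from -0.54 to -0.18 in DW16 and from -0.42 to -0.31 in EW16.

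Of 22 genes of mitochondrial transcription and RNA processing, Tfam, which packages and transcribes mitochondrial DNA, fell in DW16 (-1.34, SE 0.273, limma adjusted p = 0.00793), as did Trmt10c, a subunit of mitochondrial RNase P (-1.44, SE 0.299, limma adjusted p = 0.00838). Elac2 (-0.52) and Hsd17b10 (-0.88), which also process mitochondrial tRNA, fell in EW16. After quantile normalization Tfam and Trmt10c were still called and Elac2 and Hsd17b10 were not (limma adjusted p = 0.165 and 0.0717). In DW16, 1 gene of this list was then called higher (1.54% of all probe sets were). The median of the list moved from -0.45 to -0.13 in DW16 and turned from -0.11 to +0.079 in EW16. None of 13 transcriptional regulators passed in a diet comparison as deposited, and after quantile normalization 1 was called higher in DW16. The nuclear-encoded subunits of oxidative phosphorylation, partners of the products of this ribosome, had medians of -0.09 in DW8, -0.18 in DW16 and -0.37 in EW16 over 75 genes, with 0, 0 and 7 called lower. After quantile normalization the DW16 median turned to +0.12 with 11 called higher, and that of EW16 was -0.11 with 3 called lower. Without the narrow-range arrays these medians were +0.20 and -0.33. The 42 cytosolic ribosomal proteins had medians of -0.09, -0.28 and -0.42, with 0, 0 and 2 called lower. After quantile normalization the DW16 median turned to +0.10 with 4 called higher, and that of EW16 was -0.19 with 4 called lower, and without the narrow-range arrays they were +0.14 and -0.43. The medians of the mitochondrial ribosomal proteins were -0.15, -0.27 and -0.42 as deposited, and no difference between the lists was tested.

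Markers of other cells were read beside these results. In DW8, 7 of 8 endothelial and 5 of 6 mesothelial markers were lower than in DC8, with medians of -0.30 and -0.39. All 3 brown adipocyte markers were higher, with a median of +0.66. The medians of macrophage, stromal and T and B cell markers were -0.023, -0.026 and -0.096, and no marker was called in DW8. In DW16, the mean of 8 endothelial markers was 8.33 ± 0.621 (SD, n = 9) against 9.37 ± 0.189 (SD, n = 5) in DC16, with all 8 lower and Pecam1 called, and on the usual arrays it was 9.51 and 9.24. In EW16, the mean of 6 mesothelial markers was 6.70 ± 0.333 (SD, n = 8) against 7.74 ± 0.389 (SD, n = 5) in EC16, with ranges of 6.37 to 7.32 and 7.35 to 8.30, and Upk3b, Wt1 and Krt19 were called lower. In DW16 the mesothelial marker Lrrn4 was called lower. The mesothelial mean was 7.32 in EW16 mouse 4 and 6.60 to 6.91 in mice 5 to 8. Of 3 brown adipocyte markers Cox7a1 rose in DW16 (+1.50, limma adjusted p = 0.00288), and Ucp1 and Cidea differed by +0.80 and -0.21 (limma adjusted p = 0.294 and 0.743). Of 8 macrophage markers Lyz2 was called lower and of 5 T and B cell markers Cd3e higher in DW16, and none of 7 stromal markers passed. Their part in the values of the ribosomal protein genes was not tested.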

How the data were processed

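The authors hybridized adipocyte RNA of 45 mice, 1 array each, to the Affymetrix MG430-2.0 platform and normalized it with RMA express. The deposited values are on a log2 scale, 1 per probe set; the software version is not given in the sources used here. The study speaks of quantile normalization across conditions, without naming the arrays normalized together, and the deposited arrays do not share 1 distribution. No column was left out (0 not used), and no pair of arrays held identical values. The number of arrays per group limits the precision, and p-values measure the spread between the mice. For each comparison limma 3.58.1 under R 4.3.3 was run with the arrays of its own groups. P-values were adjusted by Benjamini-Hochberg across 45037 probe sets without a filter on level, and an adjusted p under 0.01 counted as a call. The study's second test, SAM, was not run. Gene names come from the platform annotation, and all 76 symbols matched RefSeq. Mrpl30 and Mrpl53 are annotated only to probe sets of several genes and were left out; 10 of the chosen probe sets have suffixes that can mark shared sequence (_s_at or _x_at). The genes named are those called in a comparison, up to 12, or where fewer than 5 were called the 5 with the smallest p, the 4 with the largest and the 4 with the smallest SD of group means, the Mrps18 genes, Mrps30 and the stalk. Some of these are not printed in every comparison (levels cannot be ranked between probe sets). Others were singled out after their values were seen (Mrps11, Mrps22, Mrps33, Mrps21 and the related genes that were called in EW16). The genes, lists and tests were chosen with earlier results of these data known. Scripts were tested on simulated data. Alternatives were quantile normalization over all arrays, centring, array weights, a spread shared by the 7 groups, a trended robust eBayes, an adjusted p of 0.05, a filter on level, the mean of a gene's probe sets, the replicate block, leaving out each mouse, and leaving out the narrow-range arrays; the fit on narrow-range Western arrays alone was added after seeing the data. Promoters and figures were made with Python 3.11.15, pandas 2.3.3 and Matplotlib 3.10.9.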

Additional observations from a re-analysis of the deposited data

Results flagged for a closer look

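Of 37 sets of values of named genes within groups of 4 to 10 mice, 5 held a mouse that stood apart by Dixon's criterion at 95%, which chance gives in about 1 in 20. In EW16, mouse 4 was the highest and stood apart for Mrpl38 (9.606, next mouse 8.961), Mrps10 (9.112, next mouse 8.482), Mrps35 (9.401, next mouse 8.483) and Mrps7 (10.87, next mouse 10.18). In EC16, mouse 5 was the lowest and stood apart for Mrps12 (8.828, next mouse 9.162).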

How the results depend on the processing

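The number of genes called, written as higher and lower, depended on the setting at 16 weeks more than at 8. In DW8 against DC8 it was 0 as reported, 1 after quantile normalization, 1 with array weights and 6 at an adjusted p of 0.05. In DW16 against DC16 it was 4 (1 and 3) as reported, 4 (0 and 4) with a trended robust eBayes, 8 (6 and 2) after quantile normalization and 7 (1 and 6) after centring. It was 23 (4 and 19) with 1 spread over all groups, 33 (6 and 27) with array weights and 26 (6 and 20) at 0.05. Among probe sets above the median level it was 8 (1 and 7). It was 0 without the narrow-range arrays and 28 (3 and 25) on the narrow-range Western arrays alone. In EW16 against EC16 it was 11 lower as reported, 6 (1 and 5) after quantile normalization, 25 with 1 spread, 40 with array weights, 30 at 0.05, 6 for means of probe sets, 18 without the narrow-range arrays and 26 (1 and 25) on those alone. For DW16 against EW16, 0 became 4 with 1 spread and 24 with array weights. For the interaction of diet and genotype, 0 became 14 with array weights. For that of diet and time, 0 became 2 after quantile normalization, 24 (7 and 17) with array weights and 8 (5 and 3) at 0.05. The cause was not tested. Apart from quantile normalization and the 0.05 threshold, the share of all probe sets called is not given for these settings. Those counts alone do not show whether the genes changed more than all probe sets did.

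Medians moved in DW16 against DC16 from -0.27 to 0.085 after quantile normalization and 0.041 without the narrow-range arrays, and in EW16 against EC16 from -0.42 to -0.19 after quantile normalization. Without the narrow-range arrays the median was 0.57 for DW16 against EW16, 0.46 for diet and genotype and 0.19 for diet and time, and the last was 0.30 after quantile normalization. The counts of DC16 against EC16, DW8 against EW8 and DC16 against DC8 stayed at 0 under the settings run. Their medians, 0.10, -0.09 and 0.09, moved by less than the pooled SD of the member median within groups (0.21). That SD is wider than these medians, so the loss of a whole median would not count as a move. With array weights the median of DW8 against EW8 was 0.00058.

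With mice of the same replicate number taken as pairs, the correlations of their deviations ran from -0.44 to 0.53, so the numbers do not pair the mice. The replicate block gave 25 genes (0 higher and 25 lower) in DW16 against DC16, 0 in EW16 against EC16 and 21 (5 and 16) for diet and time. The share of all probe sets called with it is not given here.

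Leaving out each mouse in turn gave 0 to 1 gene called in DW8 against DC8, 0 (without any of DC16 mice 1 to 5 or DW16 mice 1 to 7) to 23 (without DW16 mouse 9) in DW16 against DC16, 0 (without EC16 mouse 1, 2 or 3) to 28 (without EW16 mouse 4) in EW16 against EC16, with 5 to 7 without EW16 mouse 2, 5, 6, 7 or 8 or EC16 mouse 4, and 0 to 10 (without DW16 mouse 9) for diet and time. Each of the 4 calls of DW16 was lost in 12 of 14 such fits. Mrpl43, Mrpl28, Mrps35, Mrpl38 and Mrps16 lost their call in EW16 in 3 of 13, those without EC16 mouse 1, 2 or 3. The share of all probe sets called in fits without 1 mouse is not given here.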
